A study of Mus musculus with 2 samples.

Results

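The bHLH-PAS genes are described here in mouse embryonic fibroblasts, mesenchymal cells grown from embryos, of 2 genotypes. The 10 genes were chosen by name among the 23365 genes of the authors' deposited table, and all 10 had a row: Sim1, Sim2, Npas1, Npas2, Npas3, Arnt, Arnt2, Ahr, Epas1 and Hif1a. RNA was sequenced from wild-type cells and from cells in which both TET1 and TET2 had been knocked out, with 1 library per genotype. TET1 and TET2 oxidize 5-methylcytosine in DNA, and the series asks how they act on developmental genes. The labels give no allele, strain, embryo stage, passage or treatment for either genotype, and they name no agent that both share. The table calls its conditions A and B without saying which genotype is which. Ratios are therefore stated as B over A, and it is not known whether a higher ratio belongs to the wild-type or the knock-out cells.

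Proteins of this family carry a basic helix-loop-helix domain, which binds DNA and joins a partner, and PAS domains, which sense signals or strengthen the pairing. A regulated or tissue-restricted subunit (a Sim protein, a hypoxia-inducible factor, the aryl hydrocarbon receptor or a neuronal PAS protein) usually pairs with a general subunit of the ARNT class, and the pair binds sites with the core ACGTG or a close variant. Hif1a, Arnt and Ahr are expressed in fibroblasts, whereas Sim1, Sim2 and the neuronal PAS genes are best known from the nervous system and other developing tissues.

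The members went in both directions, and close relatives in the family had different ratios. Of the 10 genes, 9 reached a mean normalized count of 50 over both conditions, the minimum used here, and Npas1 did not. By the size rule, a B/A ratio past 1 or -1 on the log2 scale, 4 members were higher in condition B (Sim1, Epas1, Npas2 and Npas3), against 8.31% of all 12401 genes at the minimum mean. Another 3 members were lower in condition B (Sim2, Ahr and Arnt2), against 9.60% of all genes. Hif1a and Arnt met the rule in neither direction. With a minimum mean of 200 in place of 50, 2 members were higher (Epas1 and Npas3), against 6.27% of all genes. At that minimum 3 were lower, against 8.32% of all genes. The authors' deposited table gave an adjusted p under 0.1 to 1 member higher in condition B (Epas1), against 1.42% of the 17339 genes with a p-value, and to 2 members lower in condition B (Sim2 and Ahr), against 0.871%. The median size of the log2 ratio, whatever its direction, was 2.06 over the 9 members and 0.34 over all genes at the minimum mean. The genes were proposed with results of these data in view, so these shares are a description and not evidence about the family.

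With 1 library per genotype, no ratio has a replicate check. The authors' p-values are from DESeq on 1 library per condition and compare those libraries, not the genotypes. In bulk RNA a lower level can mean fewer cells of a type or less RNA per cell, and these cannot be told apart. The targeted genes did not settle the labels: Tet1 had a log2 ratio of -1.82 (adjusted p = 0.851) and Tet2 of -0.74 (adjusted p = 1) per the authors' deposited table. All 12 fibroblast markers reached the minimum mean, 6 of them higher in B by the size rule and 0 lower. Of all genes at the minimum mean, 8.31% were higher and 9.60% lower. Past the 0.1 cut-off were 5 higher ones, Dcn, Fap, Lum, Thy1 and Pdgfra, against 1.42% of genes with a p-value. They were 50.5-fold, 18.4-fold, 9.81-fold, 7.35-fold and 5.80-fold higher in B per the authors' deposited table. Col1a1, Col1a2 and Fn1 had log2 ratios of -0.08, -0.07 and -0.06 there. The part of fibroblast state or composition in the ratios of the members was not tested. At the minimum mean were 1 of 7 epithelial, 2 of 5 endothelial, 2 of 5 blood cell, 2 of 7 neural and 2 of 6 skeletal muscle markers. Defining markers listed at 0, chosen after their values were seen, included Cd3e, Myod1, Myog and Myf5. In the same lists, Lyz2 and Cd68 had means of 94.7 and 59.6 and log2 ratios of 3.84 and 0.18 per the authors' deposited table. Acta1 and Des had means of 1094 and 340 and log2 ratios of 0.01 and 1.13 there. A listing at 0 need not mean that a gene was silent, as described for Eno1 below.

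**Figure D1:**
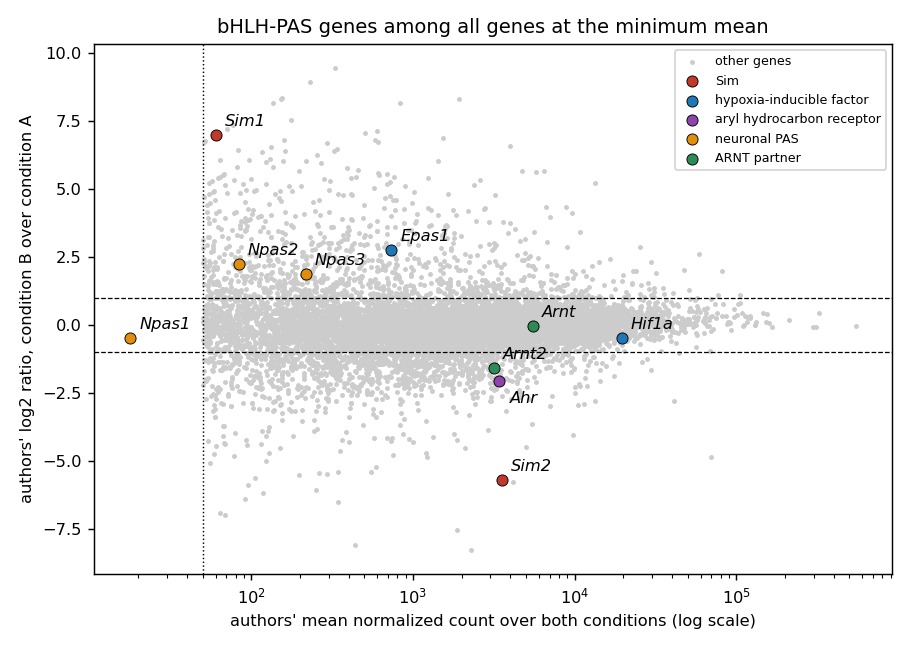
Authors' log2 ratio of condition B over condition A against the mean normalized count over both conditions (log axis) for the 10 members (coloured by role) and all genes at the minimum mean (grey, those with a finite ratio). Dashed lines mark log2 ratios of 1 and -1 and the dotted line a mean of 50. Sim1 and Sim2 lie far from the other members in opposite directions, at 6.98 and -5.71, and Npas1 lies left of the minimum mean.

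The Sim genes, named after the single-minded gene of flies, stood furthest apart. Sim2, a factor that mostly represses transcription, had a mean normalized count of 3534 and was 52.2-fold lower in condition B per the authors' deposited table (adjusted p = 5.23e-10). It ranked 16 from the lowest among the log2 ratios of 12401 genes. Sim1, which is needed for neurosecretory neurons of the hypothalamus, was 127-fold higher in condition B per the authors' deposited table, at a mean of 60.6 (adjusted p = 0.195). It ranked 16 from the highest and did not pass the cut-off. A ratio of this size at so low a mean rests on a level near 0 in condition A, and no counting interval was computed for it. The log2 ratio of Sim1 exceeded that of Sim2 by 12.69. Per kb of the longest coding transcript in GENCODE M21, the level averaged over both conditions was 884 normalized counts for Sim2 and 8.23 for Sim1. Because their ratios are opposite and large, these averages do not give the relation of the 2 genes within either condition.

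**Figure D2:**
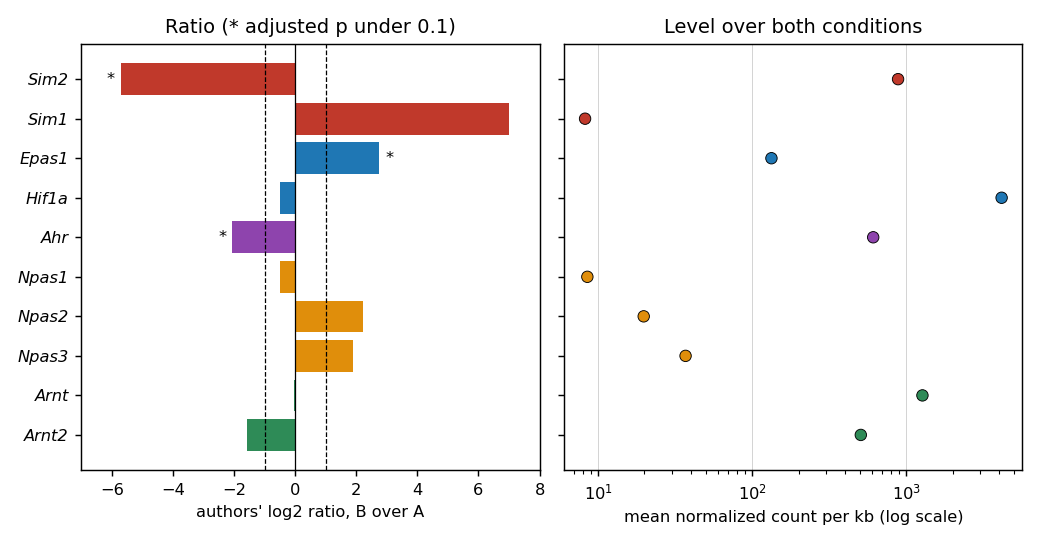
Left, bars give the authors' log2 ratio of condition B over condition A for each member, from 0, with dashed lines at 1 and -1 and a star where the authors' adjusted p is under 0.1. Right, points give the mean normalized count per kb over both conditions on a log axis, from 8.23 for Sim1 to 4151 for Hif1a, an average that need not hold in either condition. Stars stand at Sim2, Epas1 and Ahr, and 1 library per condition gives no error bars.

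Genes beside the Sim genes that reached the minimum mean had ratios closer to 0. In RefSeq order, counting genes with a row in the table, Sim2 lies between Morc3, Chaf1b and Cldn14 on the left and Hlcs, Ripply3 and Pigp on the right. Hlcs, the biotin ligase gene next to Sim2, had a log2 ratio of -0.09 per the authors' deposited table at a mean of 897. Morc3 and Pigp had log2 ratios of 0.01 and 0.11 there. Chaf1b, a chromatin assembly factor used at DNA replication, had a log2 ratio of -1.64 per the authors' deposited table (adjusted p = 0.466). It so met the size rule in the direction of Sim2, as did 9.60% of all genes at the minimum mean. Cldn14 is listed at 0, and Ripply3 had a mean of 17.1, below the minimum. Around Sim1, the helicase gene Ascc3 had a log2 ratio of -0.24 per the authors' deposited table at a mean of 5933. The other neighbours of Sim1 were below the minimum mean (D030045P18Rik, Grik2 and Gprc6a) or are listed at 0 (Fam162b and Rfx6).

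**Figure D3:**
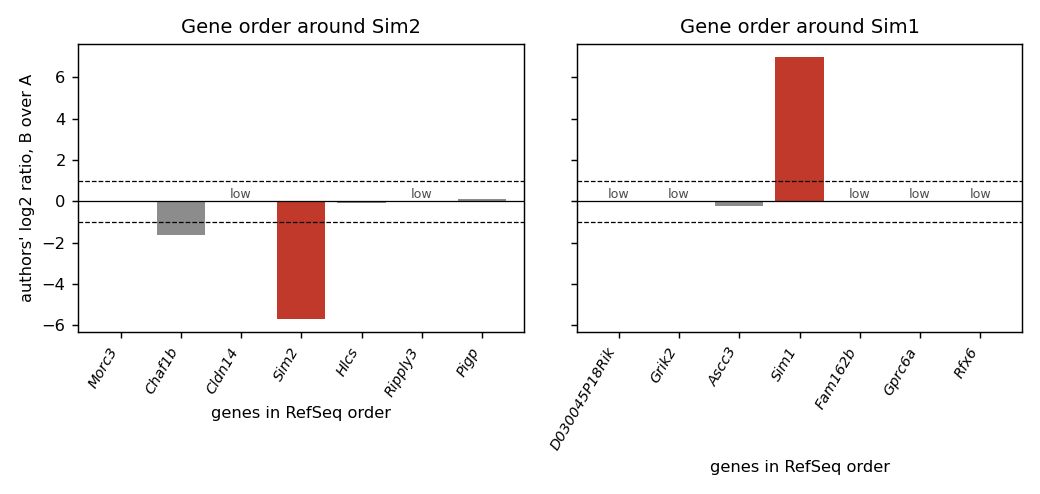
Authors' log2 ratio of condition B over condition A for Sim2 (left) and Sim1 (right) in red and the 3 genes on each side in grey, in RefSeq order without distances. Dashed lines mark 1 and -1, and "low" marks a gene below a mean normalized count of 50. Chaf1b at -1.64 was the neighbour with the ratio furthest from 0 among those drawn.

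The genes nearest to Sim2 in log2 ratio, among genes whose mean was within 2-fold of Sim2, were Impact, Cyp26b1 and Cdsn. Impact, an imprinted gene, had a log2 ratio of -5.79 per the authors' deposited table at a mean of 4164, a distance of 0.09 from Sim2. Cyp26b1, which breaks down retinoic acid, had a log2 ratio of -4.53 per the authors' deposited table, a distance of 1.18. Cdsn, the gene of corneodesmosin in the epidermis, had a log2 ratio of -4.49 there, a distance of 1.22. With 1 comparison, likeness in the ratio is the measure the data give, and it covers 2 libraries. Some cartilage markers were also lower in condition B. Among 6 chondrocyte markers, 4 reached the minimum mean. By the size rule 3 of these were lower, against 9.60% of all genes at the minimum mean, and 1 was higher, against 8.31%. Col2a1, the main collagen of cartilage, had a log2 ratio of -4.87 and Sox9, its regulator, of -1.67 per the authors' deposited table. Only Col2a1 among the 6 markers passed the 0.1 cut-off, and Sox9 and Acan met the size rule without passing it. Col11a2 had a log2 ratio of 1.32 per the authors' deposited table. The 6 markers summed to a mean normalized count of 72757, of which Col2a1 made 69652. The part of cartilage-like cells in the ratio of Sim2 was not tested.

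Of the hypoxia-inducible factor subunits, Epas1 met the size rule and Hif1a did not. Epas1 encodes HIF-2alpha, the oxygen-regulated subunit best known from endothelium. It had a mean normalized count of 735 and was 6.71-fold higher in condition B per the authors' deposited table (adjusted p = 0.0395). Hif1a encodes HIF-1alpha, whose protein is destroyed when oxygen is present. It had a mean of 19609 and a log2 ratio of -0.48 per the authors' deposited table (adjusted p = 1). The log2 ratio of Epas1 exceeded that of Hif1a by 3.23. Of all genes at the minimum mean, 8.31% met the size rule in the direction of Epas1. Of 5 endothelial markers, Kdr and Tek reached that minimum and met the rule in this direction without passing the cut-off. They had log2 ratios of 2.78 (adjusted p = 0.1001) and 1.21 (adjusted p = 1) per the authors' deposited table. Pecam1 and Cdh5, defining markers of endothelium named after their values were seen, had mean normalized counts of 9.80 and 8.43 and log2 ratios of 2.06 and -0.36 per the authors' deposited table. The 5 markers summed to 574, and their part in the Epas1 ratio was not tested.

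Genes of oxygen sensing and of the HIF response showed small ratios. All 13 genes of HIF hydroxylation and turnover reached the minimum mean, and 0 met the size rule in either direction. Of all genes at that minimum, 8.31% were higher in B and 9.60% lower. The median log2 ratio of the 13 was 0.09, beside -0.04 over all genes at the minimum mean. Egln3, a prolyl hydroxylase that marks HIF for destruction and is itself a HIF target, had a log2 ratio of 0.95 per the authors' deposited table. Siah2, a ubiquitin ligase that acts on the hydroxylases, had a log2 ratio of -0.72 there. Of 28 HIF target genes, 27 reached the minimum mean, with 0 past the 0.1 cut-off. By the size rule 0 of them were higher in B, against 8.31% of all genes, and 1 was lower, against 9.60%. Their median log2 ratio was -0.10. Car9, a carbonic anhydrase of hypoxic cells, was the target that met the rule, at a log2 ratio of -1.68 per the authors' deposited table at a mean of 51.0. Ndrg1, a stress-response gene, had a log2 ratio of -0.89 per the authors' deposited table. Eno1, a glycolytic gene that most cells use, is listed at 0, so a listing at 0 in this table does not show that a gene was silent. Its name was chosen after its value was seen.

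Ahr encodes the aryl hydrocarbon receptor, which turns on xenobiotic-metabolizing genes once a ligand binds. It had a mean normalized count of 3382 and was 4.17-fold lower in condition B per the authors' deposited table (adjusted p = 0.0889). Its repressor and target Ahrr went the other way, with a log2 ratio of 1.27 per the authors' deposited table at a mean of 226 (adjusted p = 1). Ptges3, a cochaperone of the receptor, had a log2 ratio of -0.21 per the authors' deposited table. Of 12 AHR target genes, 8 reached the minimum mean, of which 2, Ahrr among them, were higher and 1 was lower in B by the size rule. Of all genes at the minimum mean, 8.31% were higher and 9.60% lower. The median log2 ratio of the 8 targets was 0.40, beside -0.04 over all genes at the minimum mean, and 0 passed the 0.1 cut-off. Cyp1b1, named for the highest mean of these targets, 20769, had a log2 ratio of -0.43 per the authors' deposited table. Nqo1, a quinone reductase, had a log2 ratio of 1.10 per the authors' deposited table and is also driven by other stress pathways. Tiparp, which modifies and restrains the receptor, lay just under the size rule at 0.9999 per the authors' deposited table. Lpcat2, an enzyme of lipid remodelling, was the target that was lower, at -1.26 there.

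**Figure D4:**
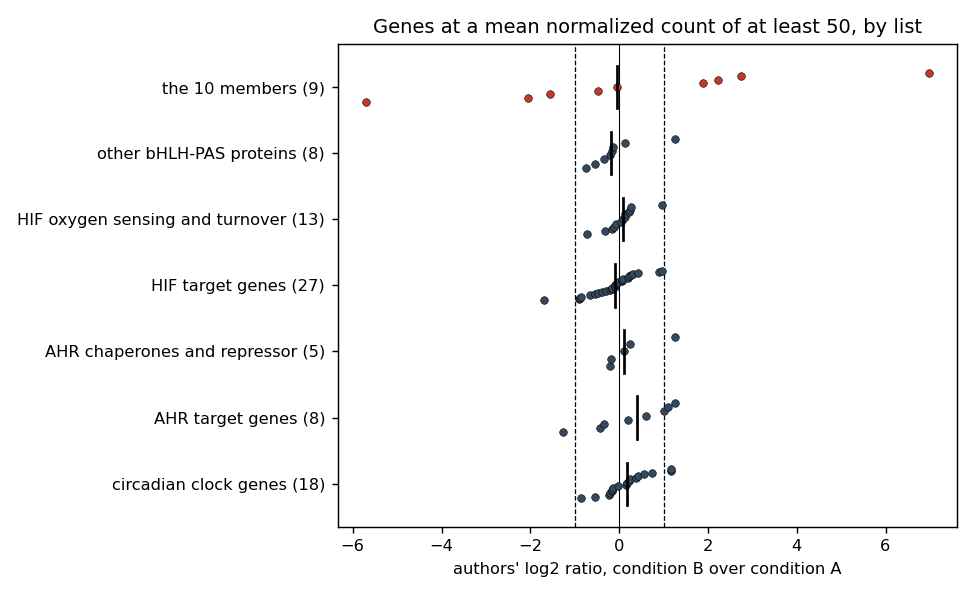
Authors' log2 ratio of condition B over condition A for the genes of each list at a mean normalized count of at least 50, 1 point per gene, with a black bar at the median and the number of genes in brackets. Dashed lines mark 1 and -1. The members spread from -5.71 to 6.98, while genes of the 6 other lists lie between -1.68 and 1.27.

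The neuronal PAS genes had mean normalized counts from 17.8 to 217. Npas3, a factor of developing brain and lung, had a mean normalized count of 217 and was 3.67-fold higher in condition B per the authors' deposited table (adjusted p = 1). Npas2, a relative of Clock that pairs with Arntl (Bmal1) in the circadian clock, had a mean of 83.7 and was 4.70-fold higher in condition B per the authors' deposited table (adjusted p = 1). Npas1, the relative of Npas3 in inhibitory neurons, had a mean of 17.8 and a log2 ratio of -0.50 per the authors' deposited table, below the minimum mean. Neither Npas2 nor Npas3 passed the 0.1 cut-off, although both met the size rule. Clock and Arntl, the main clock pair, had log2 ratios of -0.17 and -0.14 per the authors' deposited table at means of 3424 and 2603. Of 21 clock genes in the table, 18 reached the minimum mean. By the size rule 2 were higher in B, against 8.31% of all genes at the minimum mean, and 0 were lower, against 9.60%. The median log2 ratio of the 18 was 0.17, beside -0.04 over all genes at the minimum mean. The higher genes were the repressor Bhlhe41 at a log2 ratio of 1.18 and the nuclear receptor Rora at 1.17 per the authors' deposited table, neither of which passed.

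Among the general partners, Arnt2 was lower in condition B and Arnt was not by the size rule. Arnt, the common partner of AHR and HIF proteins, had a mean normalized count of 5501 and a log2 ratio of -0.04 per the authors' deposited table (adjusted p = 1). Arnt2, which pairs with SIM1 in the hypothalamus, had a mean of 3154 and was 2.97-fold lower in condition B per the authors' deposited table (adjusted p = 0.390). The log2 ratio of Arnt exceeded that of Arnt2 by 1.53. The clock partner Arntl2 had a log2 ratio of -0.55 per the authors' deposited table. Averaged over both conditions, the levels per kb were, from the highest, Hif1a (4151), Arnt (1272), Sim2 (884), Ahr (610), Arnt2 (506), Epas1 (133), Npas3 (37.0), Npas2 (19.8), Npas1 (8.52) and Sim1 (8.23). This order has no error and depends on transcript models that may differ from those the authors counted. It mixes conditions between which members differ by up to 127-fold, so it need not hold in either condition.

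Family genes outside the 10 members had ratios between -0.75 and 1.27 on the log2 scale. Of 9 other bHLH-PAS genes, 8 reached the minimum mean. By the size rule 1, Ahrr, was higher in B, against 8.31% of all genes at the minimum mean, and 0 were lower, against 9.60%. The median log2 ratio of the 8 was -0.19. The coactivators Ncoa1, Ncoa2 and Ncoa3 had log2 ratios of -0.35, -0.20 and 0.13 per the authors' deposited table. Npas4, an activity-induced gene of neurons, had a mean of 89.2 and a log2 ratio of -0.75 there. Hif3a is listed at 0. Of 10 products and partners of SIM1 in the hypothalamus, 5 are listed at 0 and 2 reached the minimum mean. The latter were Bdnf, at a mean of 9516, and Plxnc1, with log2 ratios of -0.81 and 0.89 per the authors' deposited table, genes that other tissues use as well. Of all 23365 genes, 6026 are listed at 0 and 12401 reached the minimum mean. As with Eno1, a listing at 0 need not mean that a gene was silent.

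Promoter sequences were taken from RefSeq (GRCm38.p6), where 7 of the 10 symbols matched and Sim2, Epas1 and Ahr did not. The methylation state of these promoters was not analysed here. The 250 bases before the start are shown for Sim1, the member with the highest ratio, and for the partner pair Arnt and Arnt2, of which Arnt2 met the size rule, so that their CpG content can be read. Capitals mark CpG dinucleotides, the sites that TET enzymes act on when methylated.
Sim1, chr10:50895401-50895650, + strand: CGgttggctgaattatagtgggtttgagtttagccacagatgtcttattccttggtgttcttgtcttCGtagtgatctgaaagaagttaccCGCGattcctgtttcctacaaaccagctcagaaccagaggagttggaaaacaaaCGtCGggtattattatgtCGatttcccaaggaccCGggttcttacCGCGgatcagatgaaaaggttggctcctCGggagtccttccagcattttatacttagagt
Arnt, chr3:95434140-95434389, + strand: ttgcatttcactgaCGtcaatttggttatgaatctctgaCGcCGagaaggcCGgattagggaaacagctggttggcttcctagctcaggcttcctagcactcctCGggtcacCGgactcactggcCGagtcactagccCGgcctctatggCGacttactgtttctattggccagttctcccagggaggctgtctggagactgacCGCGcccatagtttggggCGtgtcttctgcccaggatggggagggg
Arnt2, chr7:84410039-84410288, - strand: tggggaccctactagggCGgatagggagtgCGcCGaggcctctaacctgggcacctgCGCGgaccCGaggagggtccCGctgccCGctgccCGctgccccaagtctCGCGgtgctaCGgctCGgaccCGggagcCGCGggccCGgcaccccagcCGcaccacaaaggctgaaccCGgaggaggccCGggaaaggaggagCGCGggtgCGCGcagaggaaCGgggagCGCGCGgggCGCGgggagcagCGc

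The stretch before Sim1 had 11 CpGs at a GC content of 45.6%, that before Arnt 12 CpGs at 57.2% and that before Arnt2 31 CpGs at 75.6%. The median over 32841 RefSeq promoters was 6 CpGs at a GC content of 52.4%. As a ratio of observed to expected CpGs, given the C and G content, Sim1 had 0.85, Arnt 0.59 and Arnt2 0.88, beside a median of 0.37. All 7 matched members had more CpGs than the median promoter, from 11 before Sim1 to 34 before Npas2. The bHLH-PAS core ACGTG was searched on both strands of the same 250 bases, and the overlapping match of the palindrome CACGTG counts on each strand. It was found before 3 of the 7 members (Hif1a, Npas2 and Npas3) and before 16.6% of all promoters. For Hif1a and Npas3, the bases just after the start were not found in a GENCODE M21 transcript of the gene. GCGTG, the core of the AHR site, was found before 2 of the 7 (Npas2 and Arnt) and before 28.2% of all promoters. Both cores hold a CpG, and the shares of all promoters were not matched for the higher CpG counts of the members. The letters of either core were absent from the windows of Sim1 and Arnt2.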

How the data were processed

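RNA was sequenced from 2 libraries, 1 per genotype. Per the labels' protocols, DNase-treated total RNA went into the TruSeq RNA v2 kit. That kit keeps no strand information. The labels' molecule field says genomic DNA, against the protocol. TopHat2 2.0, DESeq and mm9 are named in the submitters' processing notes, while counter, annotation and dispersion settings are not stated there. The signal in the authors' deposited table is the mean normalized count, the average of A and B after scaling gene counts by size factors. The authors' deposited ratio (fold) and log2 ratio are of condition B over condition A, with no pseudocount, and the p-values are the authors' own. For 2 columns, 1 per condition, the names match the labels of neither sample. They were not used, so values per condition, depth per library, counting intervals and a pseudocount are not given.

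The members and lists were chosen with earlier results of these data known. The size rule was a log2 ratio past 1 or -1 at a mean of at least 50, and the cut-off on the authors' adjusted p was 0.1, both set here. Named were all members, the other family genes, list genes passing the cut-off or up to 4 with the largest ratios, 3 neighbours on each side of each Sim gene, the 3 genes nearest Sim2 in ratio, Tet1 and Tet2. Some genes that the rule takes are covered by counts or not reported here. Lengths came from the longest coding GENCODE M21 transcript, of which 11459 of 12401 genes had one. In that annotation exons of Npas3, Arnt2, Ahr and Hif1a overlap a gene on the opposite strand, and those of Hif1a also Gm49321 on its own strand, so their values may hold such reads. Python 3.11.15 and pandas 2.3.3 were used, and the counting of calls was tested on simulated data.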

Additional observations from a re-analysis of the deposited data

How the results depend on the processing

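A minimum mean of 200 gave 2 members higher in condition B in place of 4, since Sim1 and Npas2 have lower means. Of all genes at that minimum, 6.27% were higher and 8.32% lower. In all other settings run, the counts by the size rule stayed within 1.5 times of 4 higher and 3 lower: minimum means of 10 and none, a size rule of 2 on the log2 scale or of 1.5-fold, and centring on the median or trimmed mean. With the size rule at 2, 3 were higher and 2 lower, against 3.84% and 2.95% of all genes. The shares of all genes, higher and lower, changed more: 10.9% and 10.6% at a minimum mean of 10, and 18.2% and 13.5% with none. They were 13.9% and 17.4% at 1.5-fold, 8.62% and 9.23% centred on the median, and 8.66% and 9.19% on the trimmed mean. Centring moved each ratio by at most 0.04 and changed the sign or side of the size rule of none of the 10 members. At an adjusted p under 0.05, 2 members passed and Ahr did not. Adjustment over genes at the minimum mean gave 3. Shares over all genes were not computed for either change to the adjusted p. A pseudocount was not run. It needs a value per condition, and computing that from the mean and the fold would restore the 2 columns set aside. No paired analysis was possible because each genotype has 1 library, and leaving out a library leaves no comparison. Depth per library was not analysed here, which limits Sim1, Npas1 and Npas2 most, at mean normalized counts of 60.6, 17.8 and 83.7.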
